A study of Arabidopsis thaliana with 10 samples.

Results

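Leaves of 2 Arabidopsis lines were compared directly, the line labelled 35S:NTL6-SRDX pnet2_ab and the line labelled 35S:NTL12-SRDX pnet2_ab, each represented by 2 RNA-seq libraries of 4-week-old, untreated plants grown on soil. These 4 libraries were taken by their titles from the 10 libraries analysed. The other 6 came from wild type Col-0, from pnet2_ab and from a 35S:NTL9-SRDX pnet2_ab line, with 2 libraries each. Both lines compared carry pnet2_ab, mutations in PNET2 genes, so the contrast sets one transgenic line against another in the same mutant background, and pnet2_ab and wild type are given as reference levels. The second NTL12 library is titled NTL12 but its genotype label reads NTL2. The series text mentions triplicates, whereas 2 libraries per genotype were available. The labels do not say whether the libraries of a genotype came from separate plants, so p-values measure the spread between these libraries, which may be technical. They also do not say whether a line is 1 transformant or several.

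NTL proteins are NAC transcription factors with a membrane anchor. They are held at a membrane and can be released to enter the nucleus, and several of them take part in responses to cold, pathogens, endoplasmic reticulum stress and mitochondrial stress. PNET2 proteins are inner nuclear membrane proteins of plants. SRDX is a plant repression domain, and a transcription factor fused to it acts as a dominant repressor of the genes it binds. The 35S promoter drives expression in most plant tissues and is not tied to the places where the native NTL genes are used. Where the fusions were expressed in these plants was not measured.

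The 10 libraries held 22638465 to 28345856 counts, with 24089370 and 25321239 in the NTL6 line and 25934548 and 23542260 in the NTL12 line. The 10 most abundant genes took 8.9% to 11.7% of the counts of a library. The Pearson correlation of log2 CPM (counts scaled to a common library size) was 0.9813 within the NTL6 line, 0.9817 within the NTL12 line and 0.9659 to 0.9677 between libraries of the different lines, over the tested genes. Leaf identity was checked with marker lists. The 18 mesophyll markers summed to 58415 and 60614 CPM in the NTL6 line and to 63632 and 60832 CPM in the NTL12 line, none of them at 0, whereas the 15 floral organ markers summed to 24.8 and 22.7 against 30.2 and 33 CPM and the 19 root markers to 108 and 94.7 against 94.3 and 105 CPM. Of the floral markers 3 and 5 were at 0 in the NTL6 libraries and 6 and 7 in the NTL12 libraries, and of the root markers 7 and 10 against 8 and 9. The RNA is from whole leaf tissue, so fewer cells of a type and less RNA per cell cannot be told apart.

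The targeted gene itself did not mark the NTL6 line. NAC062, the gene that encodes NTL6, stood at 18.1 and 19.7 CPM in the libraries labelled NTL6-SRDX, at 36.5 and 29.5 CPM in the NTL12 line, at 23.8 and 27.1 CPM in pnet2_ab, and wild type gave 19.7 and 17.7 CPM. Counts at this gene were therefore lower, not higher, in the libraries labelled NTL6-SRDX, by 0.81 ± 0.13 (SE) on the log2 scale against the NTL12 line, with an edgeR adjusted p of 1.2e-04. NTL9 showed no higher count in the NTL9 line either, at 27.7 and 22.9 CPM against 26.5 and 25.5 CPM in pnet2_ab. Gene counts do not separate transgene from native transcript, and no file ties NTL12 to a locus, so neither label could be checked by its transgene. Below, the NTL6 line and the NTL12 line mean the libraries so labelled.

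Of the 16 tested NTL family genes, 2 passed the test, both lower in the NTL6 line (12.5%, near the 8.46% of all tested genes). Besides NAC062 this was TIP, a NAC factor known from its interaction with a viral coat protein, at 25.3 and 29.5 against 37.7 and 37.6 CPM, a log2 difference of -0.46 ± 0.11 with an adjusted p of 0.006, which became 0.12 without the first NTL6 library. The 3 PNET2 family loci did not pass, though 1 was lower at an unadjusted p under 0.05 (DESeq2 and limma on FPKM also called none). AT1G28760 stood at 13.7 and 14 against 11.9 and 15.4 CPM, AT5G67610 at 8.8 and 8.63 against 12 and 10.7 CPM, and AT3G49840 at 4.12 and 5.33 against 6.33 and 6.03 CPM. Of 17 nuclear envelope genes tested, 2 were lower in the NTL6 line (11.8%, near 8.46% again) and none was higher, also at an unadjusted p under 0.05. They were WIP2, a partner of the outer envelope at nuclear pores (-0.82 ± 0.18, adjusted p = 0.0025, and 0.1 without the second NTL12 library), and CRWN1, a nuclear lamina protein (-0.26 ± 0.09, adjusted p = 0.04, and 0.12, 0.2 and 0.33 without the first NTL6, the second NTL6 or the second NTL12 library).

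The lines differed at 3549 of 20334 tested genes, 17.5%, at an adjusted p under 0.05 in edgeR's quasi-likelihood test with Benjamini-Hochberg adjustment over all tested genes. Of these 1829 were higher in the NTL6 line (8.99% of the tested genes) and 1720 were lower (8.46%). These shares are the background for each count of list members below. The median log2 fold change of the higher genes was 0.47 and that of the lower genes -0.58. Genes past a 2-fold difference were fewer and more often lower, 557 in all (2.74%), 140 higher (0.689%) and 417 lower (2.05%), and past 4-fold there were 46 and 132. At 3548 of the 3549 called genes both libraries of a line lay beyond both of the other, which was also so for 57.1% of all tested genes. It was also a condition of the rule that named the largest rises and falls. Where libraries of called genes are said below not to overlap, this is therefore a description and no further support. Leaving out 1 of the 4 libraries, which leaves its line with a single library assumed to vary like the other groups, gave between 1094 and 1192 higher and between 1081 and 1124 lower genes, and 686 higher and 733 lower genes were called in each of these 4 fits. Where a gene group is said below to give other counts without each library in turn, the order is the first NTL6, the second NTL6, the first NTL12 and the second NTL12 library.

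**Figure D1:**
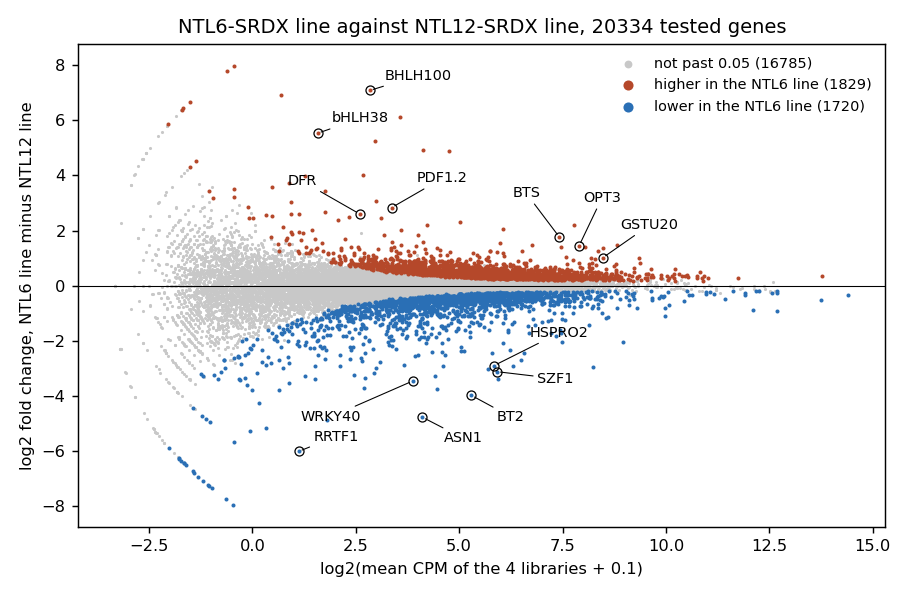
Log2 fold change of the NTL6 line minus the NTL12 line against the mean level over their 4 libraries, as log2(CPM + 0.1), for 20334 tested genes. Red points (1829) were higher in the NTL6 line, blue points (1720) were lower, grey points did not pass 0.05, and ringed points are named in the text. ASN1 at -4.77, BT2 at -3.98 and SZF1 at -3.12 lie among the largest falls, and BHLH100 at 7.08 among the largest rises.

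The parental pnet2_ab level lay between the lines for most called genes and nearer to the NTL12 line. Of the 1829 genes higher in the NTL6 line, pnet2_ab lay between the line means for 1270 (69.4%), above both for 92 and below both for 467. Of the 1720 lower genes it lay between them for 1239 (72%), above both for 401 and below both for 80. The pnet2_ab mean was nearer to the NTL12 line for 1327 of the higher genes (72.6%) and for 1265 of the lower genes (73.5%), and for 360 of the 417 genes lower by at least 2-fold (86.3%) and for 79 of the 140 genes higher by at least 2-fold (56.4%). Against pnet2_ab itself 3682 genes (18.1%) passed in the NTL6 line and 1413 (6.95%) in the NTL12 line, and these comparisons share the pnet2_ab libraries. Wild type stood the other way round, nearer to the NTL6 line for 1206 of the higher genes and for 1075 of the lower genes.

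Iron homeostasis genes held the 2 largest of the 12 rises named by rule, those of BHLH100 and bHLH38. Plants sense iron deficiency through a cascade of basic helix-loop-helix (bHLH) factors that switch on uptake and transport genes, and the ubiquitin ligase BRUTUS limits that response, while ferritins store iron when it is plentiful. Of 31 tested genes on the iron and copper list 11 were higher in the NTL6 line and 10 were lower, against 8.99% and 8.46% of all tested genes. The list had a median log2 fold change of -0.16 and a mean of 0.74, opposite in sign, beside a median of 0.00 over all tested genes. The higher members were deficiency-response regulators and transport genes, and the lower ones included iron stores, plastid and leaf reductases and copper enzymes.

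The 4 bHLH factors of the deficiency response, which promote iron uptake genes, were all higher in the NTL6 line. BHLH100 (AT2G41240, TAIR10 chromosome 2, 17198282 to 17199320, minus strand) stood at 13.8 and 14.2 CPM in the NTL6 line, at 0.19 and 0 CPM in the NTL12 line, at 0 and 2.89 CPM in pnet2_ab and at 2.55 and 2.59 CPM in wild type. Both NTL6 libraries exceeded every library of those 3 genotypes, and the fitted log2 difference from the NTL12 line was 7.08 with a standard error of 1.0 and an edgeR adjusted p of 3.2e-05 (0.057 in DESeq2). The size of this difference is uncertain, since it rests on 718 counts against 5, all 5 of them in the first NTL12 library, a ratio of 142 with a 95% exact counting interval of 60.6 to 439, and the fitted value was 11.43 without that library and 6.17 without the second. bHLH38 (AT3G56970, chromosome 3, 21084110 to 21085150, minus strand) stood at 4.96 and 6.37 against 0.152 and 0.082 CPM, with 0.326 and 2.08 CPM in pnet2_ab, a log2 difference of 5.53 ± 0.79 (adjusted p = 3.1e-05). Its neighbour bHLH39 gave 155 counts over the NTL6 libraries and 1 count over the NTL12 libraries, a ratio of 153 with a 95% exact counting interval of 27.1 to 6100 (adjusted p = 5.4e-04). BHLH101 stood at 6.7 and 7.06 against 1.02 and 1.6 CPM (2.39 ± 0.50, adjusted p = 0.0015). The NTL6 and NTL12 libraries did not overlap at any of these factors, which the naming rule required of BHLH100 and bHLH38. The pnet2_ab libraries were themselves far apart, BHLH101 for example at 1.44 and 5.95 CPM.

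The promoters of BHLH100 and bHLH38 are shown because these genes head the 12 rises named by rule. Each is the 250 bases before the gene start in the RefSeq annotation of TAIR10.1, read 5′ to 3′ on the gene's strand, at chr2:17199455-17199704 and chr3:21085246-21085495, both on the minus strand. Capitals mark matches to 10 short motifs searched on both strands.

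BHLH100: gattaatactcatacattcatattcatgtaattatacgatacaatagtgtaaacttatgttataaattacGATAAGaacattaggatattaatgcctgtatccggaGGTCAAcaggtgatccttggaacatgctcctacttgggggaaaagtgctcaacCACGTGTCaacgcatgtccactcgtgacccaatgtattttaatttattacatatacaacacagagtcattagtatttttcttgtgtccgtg

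bHLH38: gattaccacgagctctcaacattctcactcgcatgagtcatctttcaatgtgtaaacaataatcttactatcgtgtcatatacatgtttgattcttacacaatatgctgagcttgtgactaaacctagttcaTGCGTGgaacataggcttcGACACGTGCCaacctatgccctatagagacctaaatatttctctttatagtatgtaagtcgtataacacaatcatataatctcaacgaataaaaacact

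Each held the G box CACGTG, the palindrome bound by many bHLH and bZIP factors, starting 91 bases before the gene start in BHLH100 and 97 bases before it in bHLH38. The abscisic acid response element core ACGTGNC overlapped the G box in both. In BHLH100 an I box (GATAAG) started 180 bases and a W box (TTGACC, here on the opposite strand) 144 bases before the gene start, and in bHLH38 a NAC core site (CACGCA, opposite strand) started 118 bases before it. A G box was present in 7.2% of the 20217 promoters of tested genes, so these matches are a description of the 2 windows.

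The regulators PYE and BTS were higher as well. PYE, a bHLH repressor induced by iron deficiency, stood at 18.4 and 19.8 CPM in the NTL6 line and at 5.01 and 4.39 CPM in the NTL12 line (log2 difference 2.02 ± 0.22, adjusted p = 8.8e-07). BTS, the BRUTUS ubiquitin ligase, stood at 272 and 258 against 83.4 and 73.1 CPM, with 90.3 and 148 CPM in pnet2_ab, and wild type at 180 and 167 CPM (1.76 ± 0.14, adjusted p = 6.3e-09). Its NTL6 libraries were the highest and its NTL12 libraries the lowest of these 8. ORG1, a gene named for its response to the factor OBP3, stood at 364 and 349 against 75.9 and 80.9 CPM (2.19 ± 0.22, adjusted p = 3.4e-07).

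Most transport and chelation genes that passed were also higher in the NTL6 line, whereas NAS3 and the transporter gene YSL1 were lower. YSL1 stood at 19.7 and 16 against 31.1 and 26 CPM (-0.68 ± 0.13, adjusted p = 6.1e-04). OPT3, a phloem iron transporter needed for signalling of iron status from shoot to root, stood at 340 and 360 CPM in the NTL6 line, at 132 and 124 CPM in the NTL12 line and at 167 and 206 CPM in pnet2_ab. Neither line overlapped the other or pnet2_ab, and OPT3 passed in each comparison, by 1.45 ± 0.09 between the lines (adjusted p = 8.7e-11), 0.91 ± 0.09 for the NTL6 line against pnet2_ab (1.1e-07) and -0.54 ± 0.09 for the NTL12 line against pnet2_ab (3.2e-04). NAS4, which makes the iron chelator nicotianamine, stood at 29.5 and 31.3 against 7.09 and 6.23 CPM (2.19 ± 0.19, adjusted p = 2.6e-08). FRO3, a mitochondrial iron reductase, stood at 93.2 and 90.9 against 40.3 and 40.6 CPM (1.19 ± 0.12, adjusted p = 5.7e-07). NAS1 and the vacuolar iron exporter NRAMP4 were higher by 1.02 ± 0.15 and 0.96 ± 0.12 (adjusted p = 4.1e-05 and 9.2e-06). FIT, the root regulator of uptake, was low, at 2.42 and 1.46 against 0.872 and 1.39 CPM and did not pass (adjusted p = 0.42).

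Iron stores and leaf reductases went the other way. FER1, a plastid ferritin, stood at 11.7 and 9.89 CPM in the NTL6 line, at 35.8 and 34.1 CPM in the NTL12 line, at 28.7 and 25.5 CPM in pnet2_ab and at 13.1 and 11.4 CPM in wild type. The NTL6 and wild-type libraries were low and the NTL12 and pnet2_ab libraries high, and the lines differed by -1.70 ± 0.13 (adjusted p = 3.2e-09). FER4, a second ferritin, stood at 26.7 and 25.8 against 51 and 53.8 CPM (-1.0 ± 0.09, adjusted p = 1.1e-07), while FER3 stood at 42.2 and 41 against 46.2 and 37.8 CPM and did not pass (adjusted p = 0.95). NAS3 departed from the other nicotianamine synthase genes, at 7.61 and 6.83 against 26.7 and 25.7 CPM (-1.86 ± 0.14, adjusted p = 5.7e-09). The reductase FRO6 was lower by 0.75 on the log2 scale (-0.75 ± 0.07, adjusted p = 1.9e-07), at 182 and 183 against 312 and 302 CPM, and the iron-sulfur protein NEET was lower as well (-1.46 ± 0.24, adjusted p = 1.8e-04). The copper and zinc superoxide dismutase CSD1 was lower by a smaller amount (-0.53 ± 0.09, adjusted p = 3.4e-04).

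**Figure D2:**
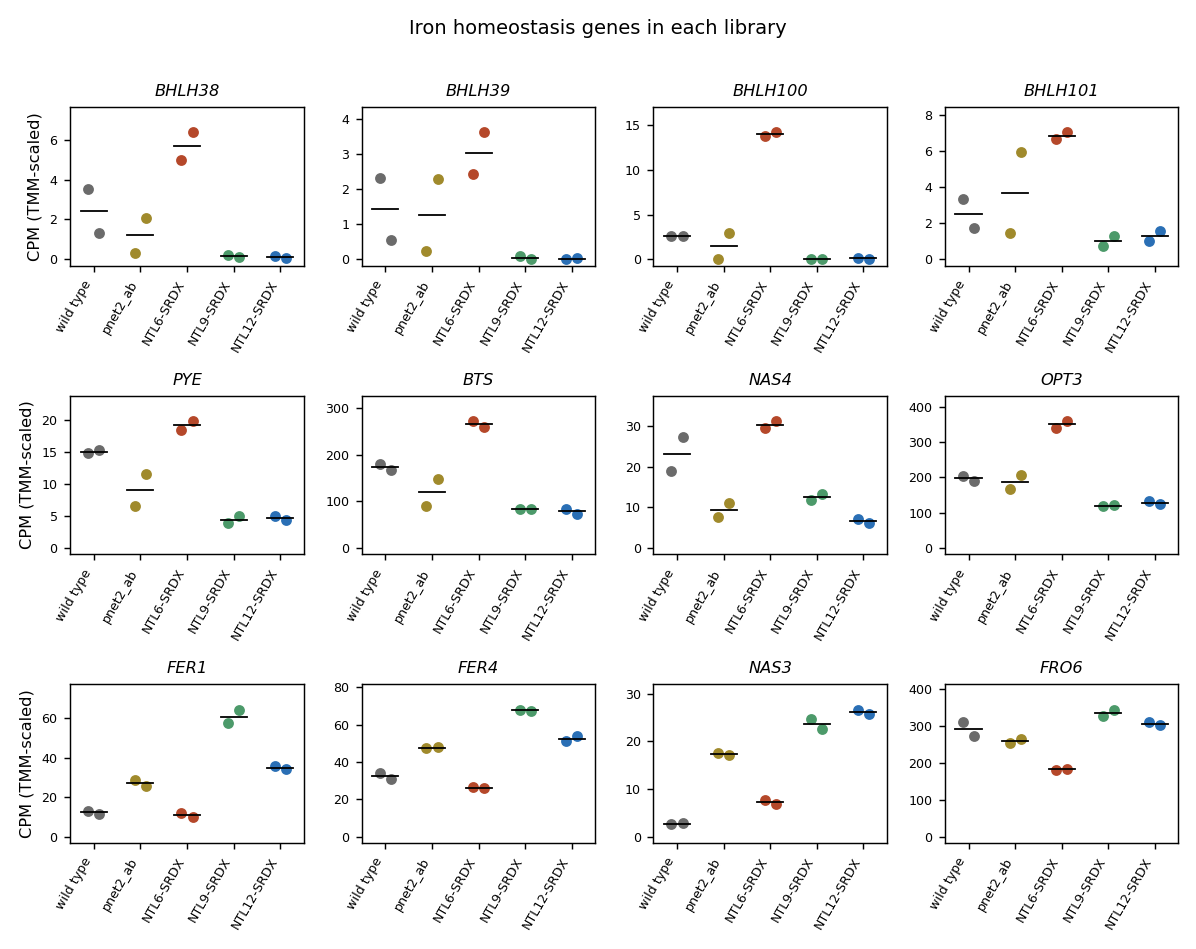
CPM of 12 iron homeostasis genes in each of the 10 libraries, with 1 point per library and a bar at the group mean; each panel has its own linear axis. For BHLH100, PYE, BTS, NAS4 and OPT3 the NTL6 points lie above all others, for example OPT3 at 340 and 360 CPM, and for FER4 and FRO6 they lie below all others, at 26.7 and 25.8 CPM and at 182 and 183 CPM.

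Some loci without a symbol also had large rises. Chosen after their values were seen, AT2G30766 stood at 35.3 and 32.3 CPM in the NTL6 line and at 1.25 and 0.943 CPM in the NTL12 line (4.93 ± 0.43, adjusted p = 3.6e-08), and AT1G47395 at 11.9 and 12 against 1.06 and 0.41 CPM (4.0 ± 0.49, adjusted p = 4.5e-06). AT2G14247 stood at 20.3 and 26.2 against 0.493 and 0.164 CPM (6.10 ± 0.73, adjusted p = 3.2e-06). Their libraries did not overlap between the lines, and the pnet2_ab libraries differed widely at AT2G14247, at 0.848 and 10.2 CPM.

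Anthocyanin genes formed another group of rises. The purple anthocyanins are made from chalcones by early enzymes shared with other flavonoids and then by late enzymes such as DFR and LDOX, under MYB and bHLH activators and the repressor MYBL2. Of 22 tested members of the anthocyanin and flavonoid list 12 were higher in the NTL6 line and 1 was lower, with a median log2 fold change of 0.62 against 0.00 over all tested genes. The late enzymes changed most. LDOX stood at 13 and 15.1 CPM in the NTL6 line, at 2.05 and 1.27 CPM in the NTL12 line, at 3.03 and 1.92 CPM in pnet2_ab and at 4.15 and 6.69 CPM in wild type. The NTL6 libraries were above all of these, with a log2 difference of 3.07 ± 0.29 between the lines (adjusted p = 1.2e-07). DFR (AT5G42800, chromosome 5, 17164141 to 17165918, minus strand) stood at 10.7 and 9.66 against 1.52 and 1.84 CPM (2.60 ± 0.33, adjusted p = 7.0e-06).

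The DFR promoter is shown for comparison with the iron factors, again as 250 bases before the RefSeq gene start in TAIR10.1, chr5:17166033-17166282, minus strand, with the motif match in capitals.

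DFR: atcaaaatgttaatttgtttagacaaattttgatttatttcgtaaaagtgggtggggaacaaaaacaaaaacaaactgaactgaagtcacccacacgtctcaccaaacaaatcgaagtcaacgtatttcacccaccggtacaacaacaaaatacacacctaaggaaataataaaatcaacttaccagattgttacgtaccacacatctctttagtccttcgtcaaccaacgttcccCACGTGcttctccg

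Its only match was a G box starting 14 bases before the gene start. TT19, a glutathione transferase that carries anthocyanin to the vacuole, stood at 7.61 and 9.05 against 1.14 and 1.84 CPM (2.48 ± 0.32, adjusted p = 7.2e-06), and the sugar transferase UGT79B1 at 2.66 and 3.61 against 0.72 and 0.287 CPM (2.61 ± 0.56, adjusted p = 0.002). The differences were smaller upstream. Chalcone synthase, CHS, the entry enzyme of the flavonoid branch, stood at 56.5 and 61.2 CPM in the NTL6 line, at 26.6 and 27.1 CPM in the NTL12 line and at 37.3 and 42.9 CPM in pnet2_ab, so that the lines lay on either side of pnet2_ab (1.13 ± 0.10, adjusted p = 4.1e-08). The phenylpropanoid entry genes PAL2 and C4H did not pass. Among regulators the activator PAP1 was higher at 4.64 and 4.26 against 1.63 and 2.09 CPM (1.26 ± 0.34, adjusted p = 0.013, and 0.077 and 0.12 without the first NTL6 or the first NTL12 library). The repressor MYBL2 was the member that fell, at 83.6 and 80.7 against 199 and 201 CPM (-1.28 ± 0.09, adjusted p = 6.8e-10). TT8, a bHLH activator, did not pass, at 1.19 and 0.46 against 0.303 and 0 CPM (adjusted p = 0.13).

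Aliphatic glucosinolate genes were higher with few exceptions but by modest folds. These sulfur-rich defence compounds are made from methionine in 3 stages, chain elongation, core formation and side-chain changes. Of 25 tested members 19 were higher in the NTL6 line and none was lower (nor at an unadjusted p under 0.05, in DESeq2 or in limma on FPKM), with a median log2 fold change of 0.49, and between 15 and 19 were higher when single libraries were left out. GSTU20, a glutathione transferase of core formation, stood at 463 and 484 CPM in the NTL6 line, at 238 and 233 CPM in the NTL12 line, at 228 and 230 CPM in pnet2_ab and at 421 and 383 CPM in wild type. The NTL12 and pnet2_ab libraries were low and the NTL6 libraries highest, a log2 difference of 1.01 ± 0.08 between the lines (adjusted p = 4.4e-09), with 0.04 ± 0.08 for the NTL12 line against pnet2_ab (adjusted p = 0.82). For chain elongation, IPMI2 stood at 140 and 135 against 69.8 and 74.4 CPM (0.93 ± 0.09, adjusted p = 1.9e-07) and IMD1 at 300 and 289 against 176 and 197 CPM (0.66 ± 0.09, adjusted p = 1.3e-05). CYP79F1, which opens the core pathway, stood at 360 and 366 against 230 and 240 CPM (0.63 ± 0.09, adjusted p = 4.0e-05). Of the MYB activators, MYB28 was higher at 107 and 97.4 against 67.8 and 77.9 CPM (0.49 ± 0.09, adjusted p = 4.0e-04), whereas MYB29 at 62.1 and 59.6 against 51.5 and 54.4 CPM and MYB76 at 5.87 and 3.72 against 3.91 and 3.93 CPM did not pass (adjusted p = 0.23 and 0.58). CYP79F2 and MAM3 also did not pass.

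Sulfate assimilation, which supplies sulfur to this pathway, leaned the same way. Of 42 tested sulfate and glutathione genes 10 were higher (8, 6, 10 and 6 without each library in turn) and none was lower, with a median of 0.17, while 2 were lower at an unadjusted p under 0.05, 1 in DESeq2 and 1 in limma on FPKM. Among the higher ones were the 3 adenosine phosphosulfate reductase genes, APR3 at 53.3 and 49.6 against 33.6 and 28.9 CPM (0.72 ± 0.11, adjusted p = 1.1e-04), APR1 at 103 and 105 against 74.3 and 62.5 CPM (0.60 ± 0.09, adjusted p = 4.3e-05) and APR2 at 91.1 and 94.1 against 69.4 and 67.9 CPM (0.43 ± 0.08, adjusted p = 3.3e-04). Each of the 3 had both NTL6 libraries above both NTL12 libraries. Indole glucosinolate and camalexin genes were split, with 6 higher and 5 lower of 24. CYP71A13, a camalexin enzyme, was higher at 13 and 15.8 against 2.58 and 2.66 CPM (2.45 ± 0.36, adjusted p = 3.7e-05), with 3.98 and 10.4 CPM in pnet2_ab. MYB51, an activator of indole glucosinolates, was lower (-1.24 ± 0.17, adjusted p = 2.0e-05), and IGMT1, a methyltransferase of indole glucosinolates, was lower too (-1.63 ± 0.20, adjusted p = 4.9e-06), though reads of the near-identical IGMT copies may be shared.

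**Figure D3:**
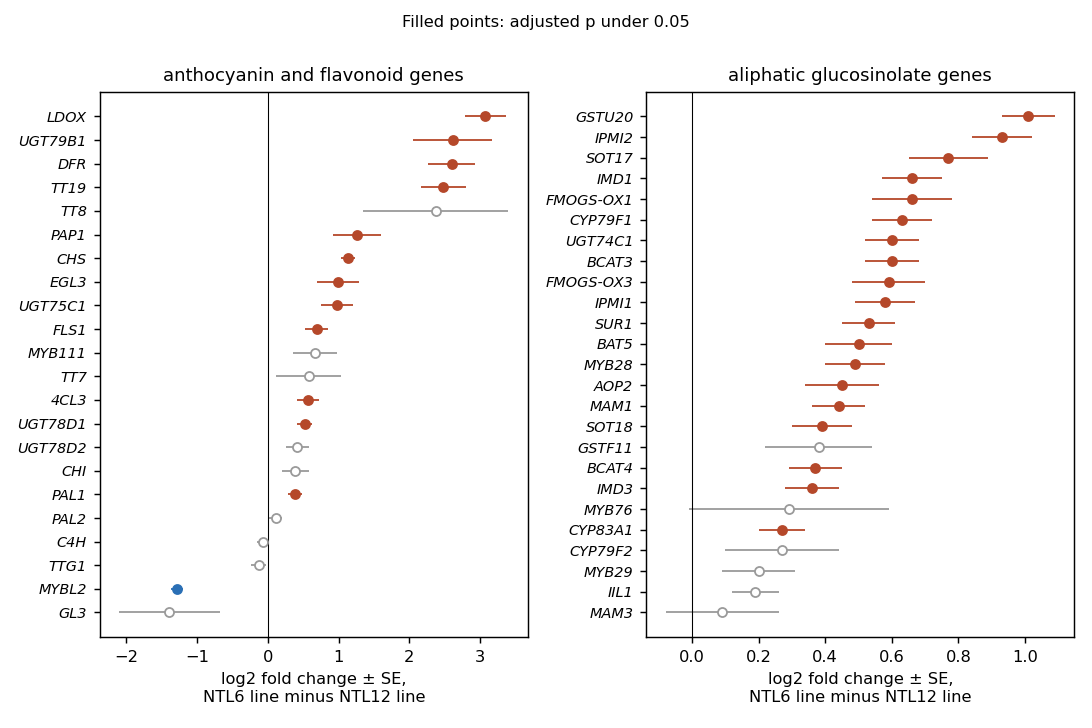
Log2 fold change of the NTL6 line minus the NTL12 line with its standard error for the 22 tested anthocyanin and flavonoid genes and the 25 tested aliphatic glucosinolate genes. Filled points passed an adjusted p of 0.05. All glucosinolate points lie at or above 0, up to 1.01 for GSTU20, and MYBL2 at -1.28 is the filled point on the lower side.

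The starvation list had the largest share of falls among the 38 lists. In darkness or low sugar the kinase SnRK1 drives a programme of nitrogen recycling and sugar sensing genes, with ASN1 as its classical marker. Of 27 tested members of the light and sugar starvation list 16 were lower in the NTL6 line and none was higher, with a median log2 fold change of -0.85, while 1 was higher at an unadjusted p under 0.05 and 1 in DESeq2. ASN1 (AT3G47340, chromosome 3, 17437884 to 17441243, minus strand), which makes the nitrogen carrier asparagine, stood at 1.15 and 1.27 CPM in the NTL6 line, at 33 and 33.3 CPM in the NTL12 line, at 29.6 and 18.3 CPM in pnet2_ab and at 5.5 and 4.77 CPM in wild type. The NTL6 libraries were the lowest, below wild type, and the lines differed by -4.77 ± 0.28 or 27.3-fold (adjusted p = 6.2e-11).

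The ASN1 promoter is shown as that of the largest of the 12 falls named by rule, 250 bases before the RefSeq gene start in TAIR10.1, chr3:17441432-17441681, minus strand, with the motif matches in capitals.

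ASN1: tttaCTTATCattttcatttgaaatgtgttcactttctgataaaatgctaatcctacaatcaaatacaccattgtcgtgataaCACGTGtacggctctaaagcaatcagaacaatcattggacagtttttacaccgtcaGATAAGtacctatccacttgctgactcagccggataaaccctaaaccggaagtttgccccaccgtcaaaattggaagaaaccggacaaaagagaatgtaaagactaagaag

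It held an I box (GATAAG) starting 246 bases before the gene start on the opposite strand and another starting 111 bases before it, and a G box starting 167 bases before it. BT2, a BTB scaffold protein induced by low sugar, stood at 5.83 and 3.53 CPM in the NTL6 line, at 78.9 and 68.5 CPM in the NTL12 line and at 60.9 and 55.1 CPM in pnet2_ab, a difference of -3.98 ± 0.17 (adjusted p = 3.9e-13). DIN1, a dark-induced gene also known as SEN1, stood at 5.27 and 6.1 against 43.6 and 42.1 CPM (-2.91 ± 0.23, adjusted p = 5.5e-09). BT5 and BT1 were also lower (-2.88 ± 0.20 and -1.52 ± 0.12, adjusted p = 1.1e-09 and 5.0e-09). In each of these genes the NTL6 and NTL12 libraries did not overlap. The pnet2_ab mean lay between the lines and closer to the NTL12 line at ASN1, BT2, DIN1 and BT5. At BT1 it lay about equally far from both, by -0.75 ± 0.12 for the NTL6 line and 0.77 ± 0.11 for the NTL12 line on the log2 scale. BT1 stood at 29.5 and 25.3 CPM in pnet2_ab, 16.8 and 15.7 CPM in the NTL6 line and 45.1 and 48.4 CPM in the NTL12 line.

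Sugar-signalling members were lower as well. TPS11 and TPS8, proteins of the trehalose phosphate synthase family, stood at 37.1 and 34.5 against 110 and 107 CPM (-1.60 ± 0.09, adjusted p = 1.8e-11) and at 53.9 and 52.8 against 145 and 153 CPM (-1.48 ± 0.09, adjusted p = 1.0e-10). For TPS11 the NTL12 line did not pass against pnet2_ab (0.09 ± 0.08, adjusted p = 0.62), and for TPS8 it did (0.54 ± 0.09, adjusted p = 3.3e-04). The raffinose enzyme gene DIN10 and the SnRK1 subunit AKINBETA1 were lower (-1.25 ± 0.13 and -1.12 ± 0.11, adjusted p = 7.6e-07 and 2.2e-07). KIN10, the catalytic subunit of SnRK1, was close to equal at 47 and 45.7 against 44.6 and 51.7 CPM and did not pass (-0.05 ± 0.09, adjusted p = 0.77).

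Several of the 12 falls named by rule were of stress genes, among them WRKY40, SZF1 and DIC2. Leaves switch on many WRKY, ERF and zinc-finger factors within minutes of touch, wounding or microbial signals. WRKY40, a repressor in defence and abscisic acid responses, stood at 2.54 and 2.3 CPM in the NTL6 line, at 26.8 and 26.6 CPM in the NTL12 line, at 4.27 and 8.07 CPM in pnet2_ab and at 1.5 and 1.16 CPM in wild type. The NTL12 libraries were far above all others, and the lines differed by -3.46 ± 0.26 (adjusted p = 3.0e-09), with 2.13 ± 0.23 for the NTL12 line and -1.34 ± 0.26 for the NTL6 line against pnet2_ab (adjusted p = 5.3e-06 and 7.8e-04). SZF1, a zinc-finger protein of salt stress, stood at 13.2 and 11.6 against 108 and 107 CPM, with 30.7 and 41 CPM in pnet2_ab (-3.12 ± 0.15, adjusted p = 1.6e-12). DIC2, a mitochondrial dicarboxylate carrier, stood at 2.54 and 3.61 against 42.4 and 39.7 CPM (-3.74 ± 0.19, adjusted p = 6.8e-12). Both genes had the NTL6 libraries below pnet2_ab and the NTL12 libraries above it.

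STZ, WRKY33 and HSPRO2 had the same order. STZ, the zinc-finger repressor also called ZAT10, stood at 4.12 and 3.95 against 40.5 and 36.9 CPM (-3.26 ± 0.19, adjusted p = 6.5e-11). WRKY33, an activator of camalexin synthesis, stood at 18 and 16.2 against 92.3 and 95.3 CPM (-2.45 ± 0.13, adjusted p = 1.8e-11). HSPRO2, a protein known for basal resistance to Pseudomonas, stood at 13.1 and 13.9 against 103 and 99 CPM, with 59.6 and 66.4 CPM in pnet2_ab (-2.90 ± 0.10, adjusted p = 1.7e-14). The libraries of the lines did not overlap at any of the 3 genes, as at nearly all called genes. The calmodulin-like CML38 was lower (-3.4 ± 0.53, adjusted p = 7.4e-05) and the wound-induced factor ORA47, an activator of jasmonate synthesis genes, likewise (-2.97 ± 0.27, adjusted p = 6.0e-08).

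**Figure D4:**
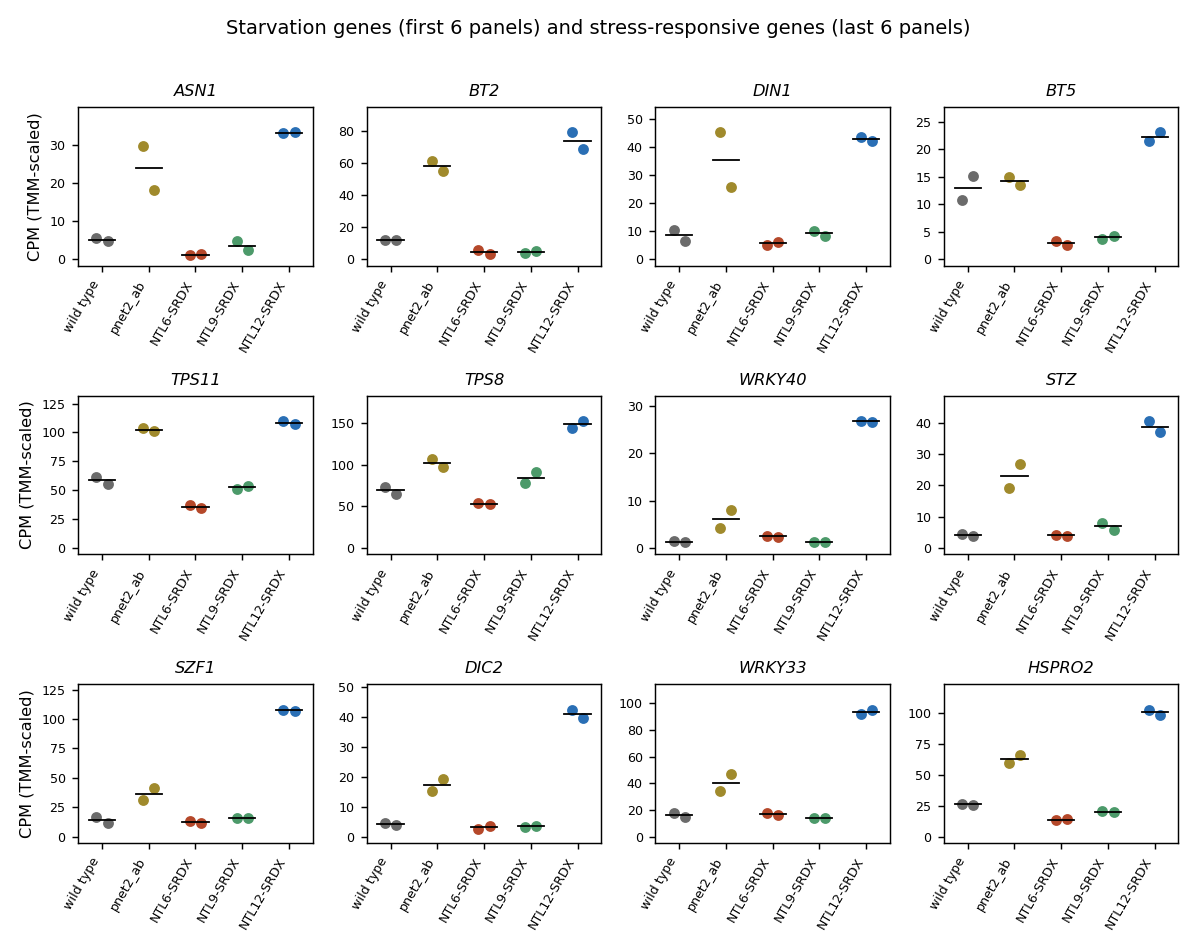
CPM of 6 starvation genes and 6 rapidly induced stress genes in each of the 10 libraries, with 1 point per library and a bar at the group mean on a linear axis per gene. The NTL6 points lie at or near the bottom of the starvation panels, for ASN1 at 1.15 and 1.27 CPM, and the NTL12 points stand above pnet2_ab in the stress panels, for SZF1 at 108 and 107 CPM against 30.7 and 41 CPM.

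On the pattern-triggered immunity list, which holds receptors, kinases and early targets of microbial pattern sensing, 14 of 40 tested members were lower in the NTL6 line and none was higher, with a median log2 fold change of -0.26. Without the first NTL6 library 9 were lower, and 2 members were higher at an unadjusted p under 0.05 but none in DESeq2 or limma on FPKM. Transcription factors such as WRKY40, WRKY33 and WRKY53 (-1.82 ± 0.18, adjusted p = 2.4e-07) and the kinase gene MKK9 (-1.10 ± 0.15, adjusted p = 2.3e-05) gave the largest of these falls. The calcium-dependent kinase CPK28 and the receptor-like cytoplasmic kinase BIK1 were lower by less (-0.83 ± 0.12 and -0.70 ± 0.13, adjusted p = 2.2e-05 and 6.8e-04). FLS2, the flagellin receptor, stood at 57.7 and 54.7 against 53.3 and 61 CPM and did not pass (adjusted p = 0.91), nor did FRK1, a late pattern-response kinase, at 1.43 and 1.61 against 1.18 and 1.15 CPM (adjusted p = 0.65). Of 22 tested NLR receptors 5 were lower (3, 4, 3 and 3 without each library in turn) and none was higher, also at an unadjusted p under 0.05, among them the helper ADR1-L2 (-0.81 ± 0.12, adjusted p = 7.1e-05).

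Ethylene and jasmonate defence genes split by kind. Of 23 tested members 5 were higher and 10 were lower, with a median of -0.05. Without the first NTL6 library 6 were lower, and without the second NTL6, the first NTL12 or the second NTL12 library 3 were higher. Several ERF factors were lower, ERF105 at 0.515 and 1.27 against 11 and 12.5 CPM (-3.71 ± 0.33, adjusted p = 4.0e-08), ERF6 at 1.59 and 1.46 against 13.3 and 13.8 CPM (-3.15 ± 0.29, adjusted p = 8.7e-08) and ERF104 at 4.48 and 4.87 against 29 and 25.2 CPM (-2.53 ± 0.20, adjusted p = 6.7e-09). The ERF genes ERF2, at 8.8 and 9.36 against 15.9 and 11.4 CPM, and ORA59, at 1.9 and 1.69 against 1.06 and 1.56 CPM, did not pass (adjusted p = 0.13 and 0.6). ACS6, an enzyme of ethylene synthesis, was lower as well (-1.85 ± 0.22, adjusted p = 2.5e-06). The antifungal defensins were higher. PDF1.2a stood at 14.9 and 20.8 CPM in the NTL6 line, at 2.05 and 2.99 CPM in the NTL12 line, at 0.652 and 1.22 CPM in pnet2_ab and at 0.9 and 0.58 CPM in wild type, so that the NTL6 libraries were highest and the NTL12 libraries next (2.83 ± 0.30, adjusted p = 6.1e-07). PDF1.2c stood at 5.04 and 7.02 against 0.455 and 0.656 CPM (3.43 ± 0.57, adjusted p = 2.1e-04). These defensins are near-identical copies and may share reads. PDF1.4 differed from them and was lower, at 0.198 and 0.499 against 3.19 and 2.46 CPM, with 11 and 7.38 CPM in pnet2_ab (-2.99 ± 0.46, adjusted p = 7.4e-05).

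Of 37 tested jasmonate genes 10 were lower and 3 were higher, with a median of -0.18. The repressor JAZ1 stood at 19.5 and 17.2 against 44.7 and 44.5 CPM (-1.28 ± 0.16, adjusted p = 4.9e-06), and MYC2, the pathway's main activator, at 35.8 and 37.1 against 60.7 and 59.9 CPM (-0.73 ± 0.13, adjusted p = 2.5e-04). The storage proteins VSP1 and VSP2, markers of the MYC2 branch, were higher (0.94 ± 0.21 and 1.22 ± 0.26, adjusted p = 0.0027 and 0.0022). For these 4 genes the libraries of the lines did not overlap.

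Salicylic acid genes were called in both directions. PR1, the standard marker, stood at 10.3 and 9.09 CPM in the NTL6 line, at 2.84 and 2.25 CPM in the NTL12 line and at 2.81 and 163 CPM in pnet2_ab. The lines did not overlap, but with the shared estimate of spread PR1 did not pass (1.92 ± 0.98, adjusted p = 0.2), nor did PR2 (1.1 ± 0.44, adjusted p = 0.092) or SAG13 (1.05 ± 0.49, adjusted p = 0.16). PR5 was higher at 35.5 and 30.4 against 13.7 and 13.2 CPM (1.29 ± 0.25, adjusted p = 8.5e-04). Of 23 tested salicylic acid response genes 4 were higher and 3 were lower, and of 23 synthesis and regulator genes 2 were higher and 4 were lower, beside 8.99% and 8.46% of all tested genes. Without each library in turn the response list gave 3, 4, 2 and 2 higher and 2, 2, 1 and 2 lower, and the synthesis list gave 5, 1, 3 and 2 lower.

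Among those that passed, ACD6, a membrane protein that promotes salicylic acid defence, stood at 389 and 373 against 140 and 151 CPM (1.39 ± 0.23, adjusted p = 2.0e-04), and DMR6, an enzyme that breaks down salicylic acid, at 26.4 and 23.7 against 8.23 and 5.78 CPM (1.84 ± 0.27, adjusted p = 3.6e-05). PCC1, a pathogen- and clock-controlled gene, was higher at 88.4 and 126 against 21.4 and 30.5 CPM (2.05 ± 0.32, adjusted p = 7.7e-05). CBP60G, an activator of salicylic acid synthesis, was lower at 8.88 and 9.86 against 36.1 and 32.3 CPM (-1.87 ± 0.17, adjusted p = 6.0e-08). The synthesis enzyme ICS1 and the signalling genes EDS1 and PAD4 did not pass, with log2 differences of 0.09 ± 0.17, 0.08 ± 0.17 and -0.20 ± 0.17.

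Abscisic acid and senescence genes were lower more often than higher. Of 33 tested abscisic acid genes 11 were lower (7, 8, 7 and 8 without each library in turn) and 2 were higher (median -0.29), and of 32 senescence genes 10 were lower and 2 were higher (median -0.31). RD26, a NAC factor of dehydration, stood at 7.3 and 7.82 CPM in the NTL6 line, at 43.7 and 37 CPM in the NTL12 line and at 25.2 and 28.6 CPM in pnet2_ab, with the lines on either side of pnet2_ab (-2.42 ± 0.14, adjusted p = 6.7e-11). NCED3, which sets the pace of abscisic acid synthesis under drought, stood at 8.49 and 9.05 against 23.7 and 26.7 CPM (-1.52 ± 0.16, adjusted p = 5.2e-07). NAP, a NAC activator of leaf senescence, stood at 6.27 and 7.1 against 25 and 26.1 CPM (-1.93 ± 0.17, adjusted p = 3.0e-08), and NYC1, a chlorophyll b reductase, at 110 and 100 against 210 and 208 CPM (-0.99 ± 0.08, adjusted p = 1.1e-08). Autophagy genes gave 9 lower (4, 4, 3 and 6 without each library in turn) and none higher of 31 (none higher also at an unadjusted p under 0.05), with ATG8E, which marks autophagosomes, at 24.5 and 25 against 43.5 and 52.4 CPM (-0.95 ± 0.11, adjusted p = 2.6e-06). SAG29, a sugar transporter induced in senescence, went against these, at 2.18 and 2.61 against 0.228 and 0.164 CPM (3.57 ± 0.61, adjusted p = 2.1e-04), with 3.26 and 6.52 CPM in pnet2_ab.

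Cold-regulated genes moved in both directions, 9 lower and 6 higher of 25 tested. The higher count was 4, 2, 3 and 2 without each library in turn, and COR15A was the 1 member higher in every such fit. The regulators STZ, ZAT12 (-2.50 ± 0.30, adjusted p = 3.2e-06) and CBF1 (-1.69 ± 0.30, adjusted p = 2.9e-04) were lower, while COR15A, a chloroplast protectant, was higher at 352 and 362 against 202 and 208 CPM (0.80 ± 0.10, adjusted p = 6.4e-06). Clock genes gave 6 lower and 1 higher of 29 (0 higher in each fit without 1 library), with PRR5 at 105 and 102 against 140 and 155 CPM (-0.51 ± 0.08, adjusted p = 4.3e-05).

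Photosynthesis genes shifted by small amounts and by kind. Of 53 tested members 19 were lower and 8 were higher, with a median of -0.16, and the lower count was 10, 16, 10 and 15 without each library in turn. Of the 19 lower ones all but RBCS2B encode antenna or photosystem proteins. LHCB1.4, an antenna protein of photosystem II, stood at 4294 and 4823 CPM in the NTL6 line, at 9187 and 8134 CPM in the NTL12 line and at 6822 and 6667 CPM in pnet2_ab (-0.93 ± 0.08, adjusted p = 7.8e-08). Of the 8 higher ones 6 were carbon-fixation genes, such as RBCS1B at 733 and 961 against 533 and 423 CPM (0.83 ± 0.11, adjusted p = 2.0e-05) and SBPASE at 739 and 733 against 597 and 557 CPM (0.35 ± 0.07, adjusted p = 6.2e-04), while the carbon-fixation gene RBCS2B was lower (-0.35 ± 0.06, adjusted p = 2.8e-04). Reads of LHCB1 and RBCS copies may be shared. HEMA1, which starts tetrapyrrole and chlorophyll synthesis, stood at 251 and 238 against 535 and 529 CPM, with 399 and 337 CPM in pnet2_ab (-1.12 ± 0.07, adjusted p = 5.0e-10).

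**Figure D5:**
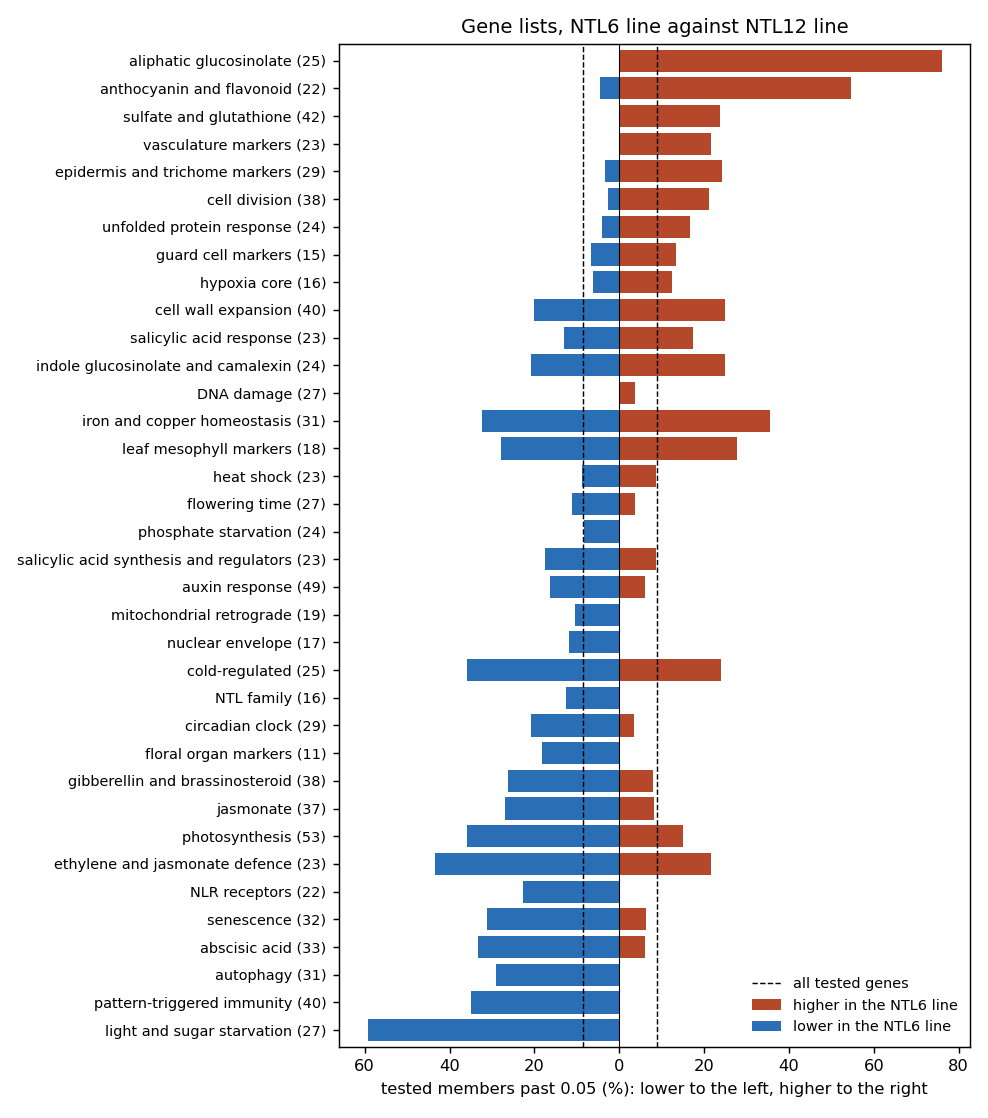
Share of the tested members of each list with at least 10 tested members that passed 0.05, higher in the NTL6 line to the right and lower to the left, with the number tested in brackets and dashed lines at the shares of all tested genes (8.99% and 8.46%). Aliphatic glucosinolate genes reach 76% on the higher side and starvation genes 59.3% on the lower side, with none on the opposite side.

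Growth was covered by lists for cell division, cell walls and hormones, beside 8.99% higher and 8.46% lower of all tested genes. The higher shares of the auxin list (6.12%) and the gibberellin and brassinosteroid list (7.89%) were below that of all tested genes. Of 38 tested cell division genes 8 were higher (7, 6, 5 and 5 without each library in turn) and 1 was lower (0 in each such fit), among the higher ones the DNA replication helicase subunit MCM3 at 46.8 and 45.1 against 31.4 and 28.4 CPM (0.62 ± 0.11, adjusted p = 4.5e-04). TSO2, a ribonucleotide reductase subunit of DNA synthesis, was the 1 DNA damage gene of 27 to pass (3 were lower at an unadjusted p under 0.05), at 121 and 118 against 65.3 and 71.6 CPM (0.81 ± 0.09, adjusted p = 1.2e-06). Cell wall genes divided, with 10 higher and 8 lower of 40, and the touch-induced XTH22 was lower at 6.23 and 7.71 against 29.7 and 29.9 CPM (-2.09 ± 0.26, adjusted p = 4.2e-06) whereas XTH31 was higher at 76.5 and 73.8 against 31.4 and 31.1 CPM (1.27 ± 0.09, adjusted p = 1.3e-09). Auxin genes gave 8 lower and 3 higher of 49, with 1, 1, 2 and 2 higher without each library in turn. Gibberellin and brassinosteroid genes gave 10 lower and 3 higher of 38, with 5, 6, 7 and 5 lower without each library in turn.

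On the flowering-time list 3 of 27 tested genes were lower (11.1%) and 1 was higher (3.7%), near the 8.46% and 8.99% of all tested genes, and the lower ones included the flowering repressors TEM2 and TEM1. TEM2, also named RAV2, stood at 25.9 and 23.6 CPM in the NTL6 line and at 123 and 127 CPM in the NTL12 line (-2.33 ± 0.10, adjusted p = 4.9e-13). It stood at 93.5 and 107 CPM in pnet2_ab and at 36.5 and 34.5 CPM in wild type. TEM1 stood at 25.2 and 25.3 against 75.6 and 68 CPM, with 85.1 and 87.9 CPM in pnet2_ab (-1.51 ± 0.10, adjusted p = 4.3e-10). The 1 higher gene, the floral identity gene AP1, rested on few counts, at 0.595 and 0.422 CPM against 0 in both NTL12 libraries (adjusted p = 0.014, and 0.062, 0.11 and 0.098 without the first NTL6, the first NTL12 or the second NTL12 library).

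Among markers of other leaf cell types more were higher than lower in the NTL6 line. Of the tested markers 7 of 29 for epidermis and trichomes, 5 of 23 for vasculature and 2 of 15 for guard cells were higher, with 1, 0 and 1 lower. The higher shares were 24.1%, 21.7% and 13.3%, beside 8.99% higher and 8.46% lower of all tested genes. Without each library in turn 3, 3, 5 and 2 vasculature markers and 3, 4, 3 and 4 mesophyll markers were higher. Mesophyll markers gave 5 higher and 5 lower of 18, floral organ markers 2 lower of 11 and root markers none of 8, where 1 root marker was higher and 1 lower at an unadjusted p under 0.05. Summed levels were 3952 and 3954 against 3562 and 3610 CPM for epidermis, 1046 and 1046 against 951 and 913 CPM for vasculature and 515 and 514 against 452 and 444 CPM for guard cells. Each sum was higher in both NTL6 libraries, and the part of this in the pathway results was not tested. Abundant markers weigh most in such sums. In the guard cell sum CYP86A2 alone stood at 262 and 263 against 212 and 195 CPM. GC1, the 1 guard cell marker that was lower, stood at 26.8 and 28.9 against 38.3 and 38.4 CPM. In the epidermis sum LTP1 alone stood at 1247 and 1276 against 1001 and 998 CPM. The lipid transfer gene LTP2 was the epidermal marker that fell, at 144 and 164 against 430 and 398 CPM (-1.43 ± 0.08, adjusted p = 2.2e-11), with 745 and 685 CPM in pnet2_ab against 18.9 and 21 CPM in wild type.

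The other stress lists were called at shares of 0% to 16.7% higher and 4.17% to 10.5% lower, beside 8.99% and 8.46% of all tested genes. Unfolded protein response genes gave 4 higher and 1 lower of 24, heat shock genes 2 and 2 of 23, mitochondrial retrograde genes none and 2 of 19, hypoxia genes 2 and 1 of 16, and phosphate starvation genes none and 2 of 24. The 4 higher unfolded protein response genes became 1, 2, 1 and 1 without each library in turn, with 0 called in every such fit, and the 2 higher hypoxia genes became 0, 1, 0 and 0. At an unadjusted p under 0.05 the mitochondrial list had 2 higher members and the phosphate list 1. HSP90.2, a cytosolic chaperone, was higher at 302 and 304 against 170 and 173 CPM (0.82 ± 0.07, adjusted p = 3.6e-08), with 263 and 240 CPM in pnet2_ab.

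Promoter motifs were counted in the 250 bases before the RefSeq gene start, as a description with no test. The I box GATAAG was present in 21% of the 415 such promoters of genes lower by at least 2-fold, in 12.9% of the 140 promoters of genes higher by at least 2-fold and in 12.4% of all 20217 promoters of tested genes. The W box TTGACC, the site of WRKY factors, was present in 15.9%, 7.86% and 12% in the same order. For the G box CACGTG the shares were 8.92%, 8.57% and 7.2%, and for the NAC core site CACGCA 3.61%, 5.71% and 3.11%. The rapid stress response element CGCGTT, the site of CAMTA factors, was present in 4.58%, 2.14% and 2.83%.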

How the data were processed

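The authors deposited a table of raw read counts per gene and a table of FPKM values (fragments scaled for gene length and library size) for the same 10 libraries. The submitters' processing notes list the tools HISAT2 2.0.4 and HTSeq 0.6.1p1 with build TAIR10, with no settings. The libraries were strand-specific per the labels, and the strand setting of the counting is not given in the sources used here. From the deposited counts, 20334 of 33602 genes passed the filter by group of edgeR 4.0.16 (R 4.3.3). They were scaled by TMM factors and fitted in 1 quasi-likelihood model of all 10 libraries and 5 groups, with no covariate. The NTL6 line was contrasted with the NTL12 line, so positive values are higher in the NTL6 line. Standard errors are the size of the log2 fold change divided by the square root of F, and p-values were adjusted by Benjamini and Hochberg's method over all tested genes with a threshold of 0.05. Levels are TMM-scaled CPM, a count of 0 allows up to 3 counts, and intervals cover counting error only.

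The FPKM values deposited by the authors used another library size than the count totals (library ratio 0.905 to 1.106) and entered only an alternative test, limma 3.58.1 on log2(FPKM + 0.1) or log2(FPKM + 1) for 19108 genes with a mean of at least 0.5. The other alternatives were DESeq2 1.42.0, other scaling factors, other filters, the 4 libraries alone, a replicate block and leaving out single libraries. Scripts were tested on simulated data. No rows lacked a gene. Replicate libraries differed by more than sampling noise, with chi-square values of 6 to 9.49 per degree of freedom.

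Genes were grouped in 38 lists, of whose 1169 entries 1088 matched the table (32 by a locus set by hand) and 1007 were tested, while 56 were unmatched, 20 were repeats and 5 were dropped. The lines compared, the lists and the rules were chosen with earlier results of these data known. The text names, besides list members, the NTL and PNET2 genes, the 12 largest rises and falls called in the full fit and in each fit without 1 library (mean of at least 5 CPM in the higher line, libraries not overlapping, symbol given), up to 4 members per list by adjusted p, defence markers, genes near 0 in 1 line and runs of neighbours. Further list members were named as examples after their values were seen. Promoters are the 250 bases before the gene start of the RefSeq annotation of TAIR10.1, searched on both strands for 10 motifs.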

Additional observations from a re-analysis of the deposited data

Results flagged for a closer look

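The genes below were called in opposite directions against pnet2_ab in the NTL6 and NTL12 lines, and the difference between the lines was itself tested (edgeR, adjusted p under 0.05). Both comparisons share the pnet2_ab libraries. Opposite calls were made for 46 of the genes higher in the NTL6 line (2.52%) and 91 of the lower ones (5.29%). More of them, 50.3% of the higher and 49.2% of the lower genes, were called against pnet2_ab in the NTL6 line only. The genes given are the ones named by rule and 4 loci without a symbol that were chosen after their values were seen. Values are log2 differences, NTL6 line minus NTL12 line. They do not show how far each line lay from pnet2_ab, and the distances were unequal at some genes. At RAV2, called TEM2 above, most of the difference lay between the NTL6 line and pnet2_ab. Some calls were also near the threshold. Against pnet2_ab the edgeR adjusted p was 0.033 at CYP71A13 and 0.036 at AT1G74770 in the NTL6 line. In the NTL12 line it was 0.042 at AT1G13609.

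Higher in the NTL6 line than in pnet2_ab and lower in the NTL12 line were the iron genes bHLH38 (5.53), ORG1 (2.19), BTS (1.76) and OPT3 (1.45). The same held for the camalexin gene CYP71A13 (2.45), the chalcone synthase gene TT4 (1.13), called CHS above, the DNA synthesis gene TSO2 (0.81) and HSP81-2 (0.82), called HSP90.2 above. Of the loci without a symbol, AT2G14247 (6.10), AT2G30766 (4.93), AT1G13609 (4.88), annotated as a defensin-like protein, and AT1G74770 (3.96), annotated as a zinc-finger protein related to BRUTUS, also did.

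Lower in the NTL6 line than in pnet2_ab and higher in the NTL12 line were RRTF1 (-6.01), DIC2 (-3.74), WRKY40 (-3.46), STZ (-3.26), SZF1 (-3.12), ORA47 (-2.97), HSPRO2 (-2.90), WRKY33 (-2.45) and CPK28 (-0.83) among rapidly induced and immune genes. Hormone and senescence genes with this order were RD26 (-2.42), NAP (-1.93), NCED3 (-1.52) and JAZ1 (-1.28). NAS3 (-1.86), TPS8 (-1.48), RAV2 (-2.33), called TEM2 above, HEMA1 (-1.12), the antenna genes LHB1B1 (-0.93), called LHCB1.4 above, and LHB1B2 (-0.53), and the clock gene LCL1 (-0.60) completed the set. The pnet2_ab libraries were far apart at bHLH38, ORG1, CYP71A13, AT2G14247, AT2G30766 and AT1G13609, so its position between the lines rests on unlike libraries there.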

How the results depend on the processing

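No called result changed direction under any alternative. Some named genes that did not pass changed sign without single libraries. Examples are KIN10 (-0.05), MYB76 (0.29), FER3 (-0.01) and AT1G28760 (0.02), which reached 0.06, -0.08, 0.14 and -0.15 at the farthest. The counts of genes higher and lower in the NTL6 line stayed within 1.5 times of 1829 and 1720 under other scaling factors (1822 to 1927 and 1646 to 1715), DESeq2 (1759 and 1614), no filter (2029 and 1918), a filter of 5 CPM (1796 and 1789), the 4 libraries alone (2165 and 2153) and limma on FPKM (1512 to 1537 and 1442 to 1476). No gene was called in opposite directions. Leaving out single libraries gave 1094 to 1192 higher and 1081 to 1124 lower genes, and for 2-fold differences 122 to 136 and 330 to 381. By list, higher and lower, it gave 11 to 12 and 7 to 9 iron genes, 15 to 19 and 0 aliphatic glucosinolate genes, 9 to 11 and 1 anthocyanin genes, 0 and 9 to 11 immunity genes, 3 to 5 and 6 to 7 ethylene and jasmonate genes, and 0 and 15 to 16 starvation genes. The 2-fold higher count fell to 91 under the 5 CPM filter, which tests fewer genes, and to 91 with log2(FPKM + 1), where the 2-fold lower count was 277 and where a larger pseudocount shrinks the folds of low genes. Immunity genes higher numbered 1 without a filter and 2 with the 4 libraries alone. Ethylene and jasmonate genes higher numbered 3 under the 5 CPM filter, and lower ones 6 in both limma fits. Starvation genes higher numbered 1 with upper-quartile factors, with the 4 libraries alone and in DESeq2. For these list counts the cause was not tested. With 2 libraries per line, each fit without 1 library left a line with a single one.

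Replicate numbers are shared between groups in the labels, but same-numbered libraries did not deviate together (correlation -0.038 between the lines, -0.038 to 0.032 over all pairs of genotypes), so the replicate block is only an alternative. With the replicate block 1723 genes were higher and 1628 lower, 3315 of them called in the same direction without it.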

Other observations

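Some genes were nearly silent in 1 of the lines. RRTF1, a redox-responsive ERF factor on TAIR10 chromosome 4 (16451876 to 16453260), had 1 and 2 counts in the NTL6 libraries, 111 and 97 counts in the NTL12 libraries, 13 and 13 in pnet2_ab and 0 in both wild-type libraries. Over the lines this is 208 against 3 counts, a ratio of 70 with a 95% exact counting interval of 23.6 to 342 (edgeR adjusted p = 3.6e-05). RTFL12, a small growth-regulating peptide gene on chromosome 4 (7785687 to 7786113), had 0 and 3 counts in the NTL6 libraries and 75 and 41 in the NTL12 libraries, a ratio of 39.1 with an interval of 13 to 192 (adjusted p = 6.4e-04). bHLH39, given with the iron genes, was the gene nearly silent in the NTL12 line by the same rule.

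Called genes also lay side by side in places. By rule, 5 runs of 4 adjacent tested genes were all called in 1 direction, 2 of them higher and 3 lower in the NTL6 line. On chromosome 1 (7386839 to 7400605) IGMT1, IGMT3, IGMT2 and IGMT4 were lower, IGMT3 by -2.26 ± 0.42 and IGMT4 by -0.36 ± 0.07 on the log2 scale, and reads of these near-identical copies may be shared. On chromosome 3 (7885668 to 7895366) RPS10, PMH1, NRPB5 and PMH2 were higher. PMH1 and PMH2, mitochondrial RNA helicases, differed by 0.75 ± 0.10 and 0.55 ± 0.09, and RPS10 was near the threshold (adjusted p = 0.048, 0.065 in DESeq2, and 0.054 to 0.33 without single libraries). The run on chromosome 3 from 21084110 to 21094297 held bHLH38, bHLH39, EDA7 and AT3G57000. The remaining runs were lower, on chromosome 4 (17631562 to 17645830) around LBD39, a repressor of nitrogen-responsive genes, and on chromosome 5 (23833728 to 23848557) from the copper transporter gene COPT1 onwards. No test of clustering was made.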
